A study of Rattus norvegicus with 15 samples.

Results

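The baseline bone transcriptome of untreated rats was described from the 3 Blank libraries of a series of 15 bulk RNA-seq libraries. The members were chosen by their label alone, Blank1, Blank2 and Blank3, without use of any measured value. Blank rats were female Sprague-Dawley rats with no treatment and no ovariectomy. The other 12 libraries, 3 each of the groups Model, SYT, YJT and YJZYT, came from ovariectomized females of the same strain, and the last 3 groups are known here only by these names. By its title, the series asks how Zhuanggu Zhitong Capsule, a herbal medicine, acts in osteoporosis after ovariectomy. The labels name neither the bone taken, the age of the rats, a sham operation nor separate animals for the replicates, so the spread between libraries may be partly technical. In bulk bone, fewer cells of a type and less RNA per cell cannot be told apart.

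Bone tissue holds osteoblasts, which lay down a matrix rich in type I collagen, osteocytes, which are osteoblasts buried in that matrix, and osteoclasts, which resorb it. Its cavities hold red marrow, where neutrophils, red cells, platelets and B lymphocytes form, and muscle and tendon attach to its surface. A bulk library of bone mixes messenger RNA from all of these sources, and the most active secretory and blood-forming cells supply its most abundant transcripts.

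Each Blank library held between 67062290 and 68542917 counts over 22468 genes, against 64472700 to 74255667 over the whole series. Blank2 stood apart from the other pair: the correlation of log2 CPM (counts scaled to a common library size with TMM factors) across expressed genes was 0.976 between Blank1 and Blank3, 0.955 between Blank2 and Blank3 and 0.939 between Blank1 and Blank2. At a 2-fold difference, 491 genes separated Blank1 from Blank3, 852 separated Blank2 from Blank3 and 1542 separated Blank1 from Blank2. Genes are not independent replicates, so these correlations are descriptions.

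At a count of at least 10, 16559 genes were detected in Blank1, 16702 in Blank2 and 16744 in Blank3, a mean of 16668 ± 97.0 (SD, n = 3). The 12 ovariectomized libraries had 16026 to 16926, and the difference in means of 150.7 genes was within the spread of the libraries (exact two-sided permutation test, p = 0.312, adjusted p = 0.468 over 6 values tested). Of the 22468 genes, 15766 reached a count of 10 in all 3 Blank libraries, 855 in 2 of them, 997 in 1 and 4850 in none. A gene with a count of at least 10 in 1 library and 0 in both others occurred 314 times, with 137 of these genes in Blank2, 98 in Blank3 and 79 in Blank1. Genes with 0 counts in all 3 libraries numbered 2331, and for each of them 3 counts, at most 4.47e-06% of a library, is the limit that a count of 0 allows. Intervals and limits of this kind cover counting error only.

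Expression was spread over a wide range of levels, given here as FPKM, a measure scaled by transcript length and library size that permits comparison between genes. The mean of the Blank libraries was at least 1000 FPKM for 64 genes, 100 to 1000 for 556, 10 to 100 for 5412, 1 to 10 for 7266, 0.1 to 1 for 3734 and lower for 5436. The 13298 genes with a mean of at least 1 FPKM are called expressed below. Protein-coding genes took 98.8% ± 0.101 of the counts (SD, n = 3), 12565 of 18258 in the table being expressed. Long non-coding genes took 0.377% ± 0.0253, with 199 of 1307 expressed, and pseudogenes 0.509% ± 0.0143.

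A small number of genes held a large part of each library. The 10 most abundant genes by count took 19.3% ± 1.38 and the 100 most abundant took 33.8% in Blank1, 39.7% in Blank2 and 33.8% in Blank3. Blank2 was the most concentrated of the 3. Between 289 and 473 genes made up 50% of the counts in Blank, against 97 to 429 in the other 12 libraries. The mean share of the top 100 was 35.8% ± 3.37 in Blank and 41.4% ± 4.49 over the other 12, a difference of -5.62 percentage points that did not pass the test (exact two-sided permutation test, p = 0.0659, adjusted p = 0.141).

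Globin and granule messages led the nuclear genes, followed by proteins of bone matrix and of the ribosome. Hbb, an adult beta-globin gene, had 81789.8 FPKM in Blank1, 46808.1 in Blank2 and 49628.6 in Blank3. Hba-a1, an alpha-globin gene, had 74563.0, 40443.8 and 50090.7 FPKM in the same order. Both were highest in Blank1 and lowest in Blank2. The beta-globin entry LOC100134871 had the reverse order, with 10989.9, 22080.4 and 13429.1 FPKM. Hba-a2, a further alpha-globin gene, averaged 25325 ± 8303 FPKM and Hbb-bs, described as beta globin minor, 5896.1 ± 1222 (SD, n = 3).

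The 25 most abundant nuclear genes with a symbol took 19.7%, 19.0% and 17.3% of counts in Blank1, Blank2 and Blank3. S100a8 and S100a9, which form the calprotectin of neutrophils, averaged 6847.2 ± 2174.9 and 6645.2 ± 1509.9 FPKM. The neutrophil defensins Defa5 and Np4 averaged 1732.7 ± 169.7 and 1545.9 ± 144.7 FPKM, and Lyz2, the lysozyme of macrophages and granulocytes, 4864.6 ± 669.1. Col1a1, which encodes the alpha 1 chain of type I collagen, had 1524.4 FPKM in Blank1, 4686.8 in Blank2 and 3508.5 in Blank3. Sparc, the collagen-binding osteonectin, had 1530.1, 4683.1 and 3145.5 FPKM. Bglap, which encodes osteocalcin, had 1638.9, 3486.8 and 2843.8 FPKM. All 3 bone genes were lowest in Blank1 and highest in Blank2. The rest of the 25 comprised Tmsb4x, which encodes an actin-binding peptide, the elongation factor Eef1a1, Tpt1, the protease inhibitor Cst3, ferritin light chain 1-like LOC100360087, an entry described only as hypothetical (LOC100359583) and 6 ribosomal protein genes. Just outside stood Spp1, which encodes osteopontin, at 1429.3 ± 506.9 FPKM, next to Rpsa at 1437.9 ± 273.3 as the last inside. Of the 25, 7 were at least 2-fold apart among the Blank libraries, against 14.3% of all expressed genes. Here and below, "fold apart" is the ratio of the highest to the lowest Blank library on TMM-scaled CPM.

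**Figure D1:**
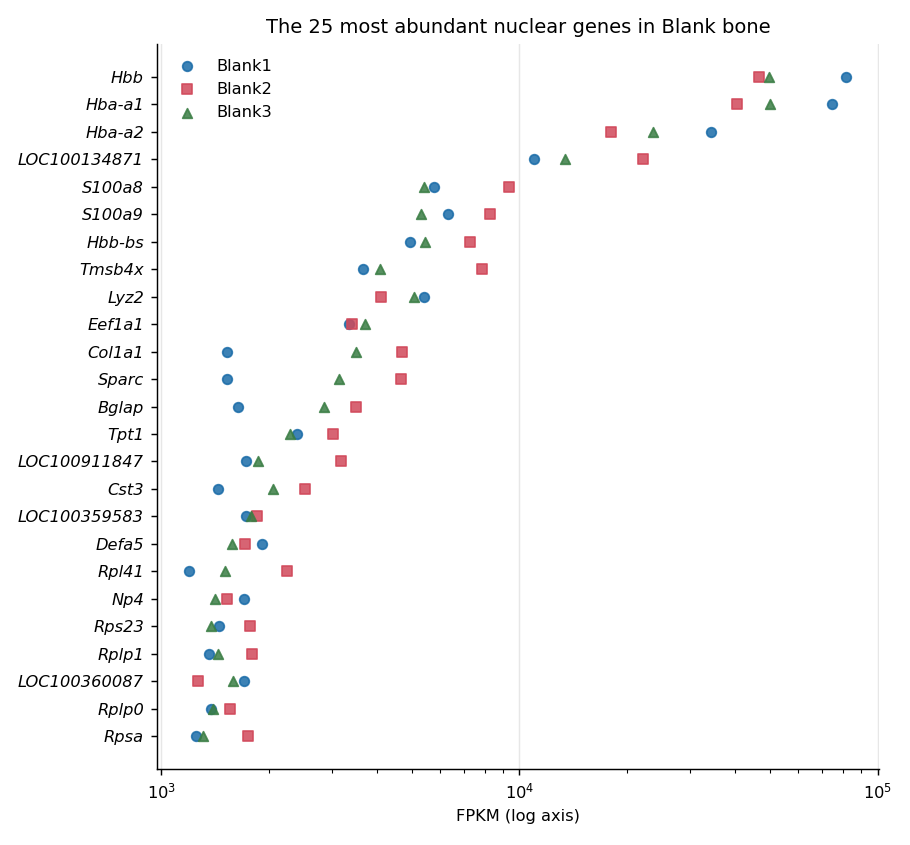
FPKM (log axis) of the 25 nuclear genes with a symbol and the highest mean over the Blank libraries, 1 point per library. Hbb and Hba-a1 are the highest in every library, and Col1a1, Sparc and Bglap are lowest in Blank1 and highest in Blank2.

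Promoters of the most abundant genes were read from RefSeq (assembly GRCr8), which held an entry for 20 of the 25. The sequence TATAAA lay on the sense strand between 40 and 20 bases before the annotated start in 5 of these 20 (25%), against 407 of 33469 promoters in the table (1.22%). On the reverse strand of the same window it was found in 0 of the 20 and 0.505% of all. On either strand anywhere in the 250 bases before the start it was in 35.0% of the 20 and 12.9% of all. A match describes these letters only and is not a mapped factor site. These 5 were Hba-a1, Hba-a2, Hbb-bs, LOC100134871 and Rplp0, while Hbb had no match. The 120 bases before the start are shown for 3 of the 4 globin genes with a match, for a ribosomal protein gene with the motif in the same window, and for the bone gene Bglap, whose motif falls nearer to the annotated start and outside the window. Capitals mark TATAAA. The positions are chr10:15842581-15842700 for Hba-a1, chr10:15829139-15829258 for Hba-a2, chr1:167631631-167631750 for Hbb-bs, chr12:46718391-46718510 for Rplp0 and chr2:176137319-176137438 for Bglap, all on the minus strand.
Hba-a1: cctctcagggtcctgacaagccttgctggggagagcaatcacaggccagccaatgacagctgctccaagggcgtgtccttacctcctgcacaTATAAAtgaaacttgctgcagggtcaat
Hba-a2: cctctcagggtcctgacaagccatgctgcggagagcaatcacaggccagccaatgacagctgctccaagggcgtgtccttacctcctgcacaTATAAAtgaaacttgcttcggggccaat
Hbb-bs: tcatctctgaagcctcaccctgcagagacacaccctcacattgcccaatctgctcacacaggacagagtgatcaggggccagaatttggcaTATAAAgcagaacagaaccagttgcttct
Rplp0: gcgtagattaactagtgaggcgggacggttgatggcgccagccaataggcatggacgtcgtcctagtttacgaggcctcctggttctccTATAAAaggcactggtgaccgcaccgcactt
Bglap: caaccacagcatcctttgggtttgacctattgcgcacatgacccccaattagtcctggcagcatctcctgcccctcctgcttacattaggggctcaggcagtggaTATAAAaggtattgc

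The Hba-a1 and Hba-a2 promoters were identical at 115 of 120 bases (95.8%). Hba-a1 took 68.1%, 68.8% and 67.7% of the counts of the alpha-globin genes in Blank1, Blank2 and Blank3, so the balance of the alpha genes differed little among the 3 libraries. The balance of the beta genes differed more. Hbb took 79.9% of beta-globin counts in Blank1, 56.7% in Blank2 and 67.5% in Blank3. LOC100134871 took 10.1%, 25.2% and 17.3%, and Hbb-bs 9.93%, 18.1% and 15.2%. In the 12 ovariectomized libraries the Hbb share ran from 51.2% to 57.1%, a range that holds Blank2 and lies below Blank1 and Blank3. The alpha to beta ratio of counts was 0.901, 0.600 and 0.849 in the Blank libraries, within the 0.583 to 1.17 of the others. The globin genes are near-identical copies whose reads may have been divided between entries, so the level of each single gene is uncertain.

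The mitochondrial genome, which encodes subunits of the respiratory chain, supplied 6.07% of counts in Blank1, 10.7% in Blank2 and 7.44% in Blank3. Its most abundant messages per length were Mt-co1, with 11433.6, 16794.5 and 13233.9 FPKM, and Mt-co3, with 8511.5, 18073.0 and 10041.7. Both encode subunits of cytochrome c oxidase. All 13 protein genes were highest in Blank2, against 40.9% of all expressed genes. They ran from Mt-co1 at 1.62-fold apart to Mt-co3 at 2.34-fold. The mean share of 8.07% ± 2.37 was lower than the 14.3% ± 5.49 of the 12 ovariectomized libraries, of which 9 lay above the Blank range and 0 below, but the difference of -6.21 percentage points did not pass (exact two-sided permutation test, p = 0.0703, adjusted p = 0.141). Libraries were made from poly(A)-selected RNA, so the share describes mostly messenger RNA that carries a tail. It also holds 24 rRNA and tRNA genes of this genome, with 0.201% of counts in Blank1, 0.425% in Blank2 and 0.177% in Blank3.

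Shares of counts were then added up for lists of marker genes of each compartment. A share by counts grows with gene length, and the widest 95% Wilson interval of a single-library share reached 0.0084 percentage points, so counting error was small beside the spread between libraries. The osteoblast and matrix list supplied 1.9% of counts in Blank1, 5.44% in Blank2 and 4.0% in Blank3, a mean of 3.78% ± 1.78 (SD, n = 3), and all 19 of its 19 measured members were expressed. The defining bone markers were thus present in every library labelled bone, with Blank1 the lowest. Ibsp, which encodes bone sialoprotein, had 522.0, 1382.0 and 816.5 FPKM. Alpl, the alkaline phosphatase needed for mineral deposition, had 42.49, 111.3 and 80.61 FPKM. Ifitm5, a membrane protein of mineralizing osteoblasts, differed the most of the list, with 12.93, 64.48 and 37.79 FPKM. Of the 19 genes, 15 were at least 2-fold apart against 14.3% of expressed genes, 17 were highest in Blank2 and 18 were lowest in Blank1. Over all expressed genes 40.9% were highest in Blank2 and 34.7% lowest in Blank1. Type I collagen alpha 2 was not under its symbol; 2 entries carry that description, with 887.2, 2221.2 and 1671.9 FPKM and with 515.3, 1575.1 and 1292.2 FPKM.

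**Figure D2:**
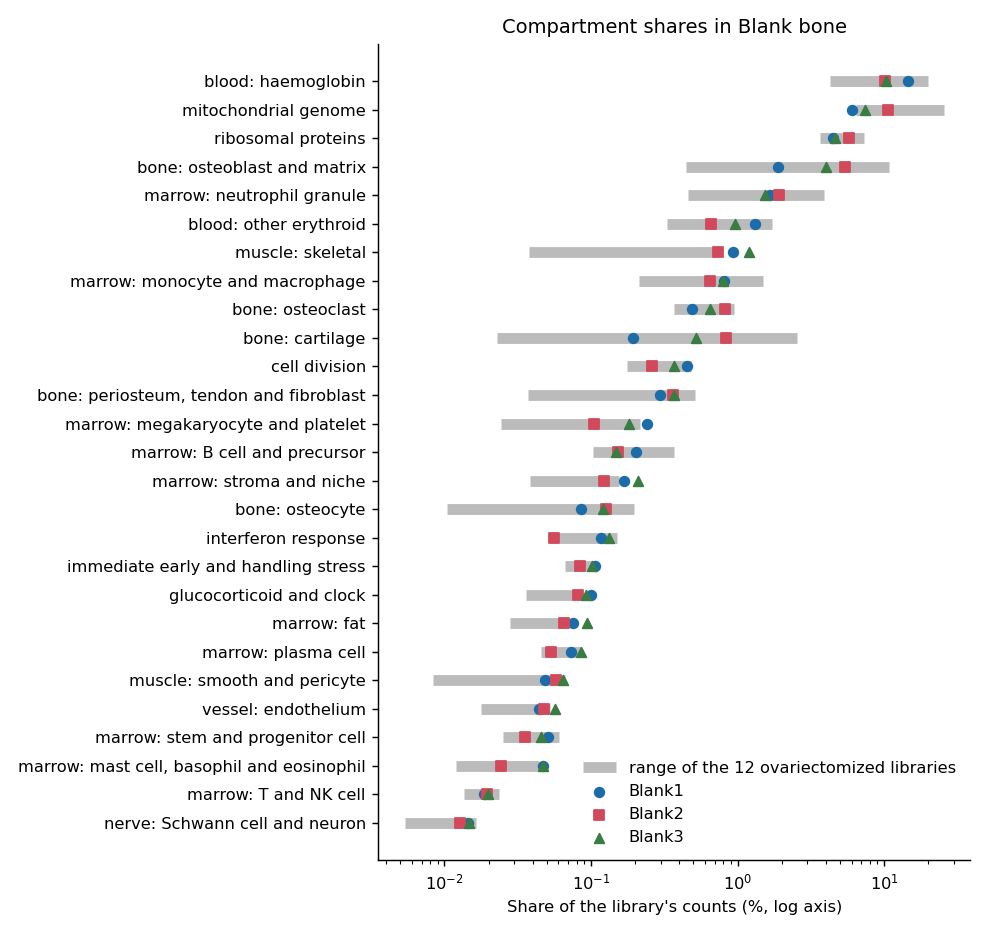
Share of each library's counts (percent, log axis) taken by lists of marker genes, by the mitochondrial genome and by ribosomal proteins, with a point for each Blank library and a grey bar for the range of the 12 ovariectomized libraries. Haemoglobin is the largest share in Blank1, and the skeletal muscle list lies above the whole grey bar in all 3 Blank libraries.

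Osteocyte genes did not all follow the matrix genes. The list as a whole supplied 0.0853%, 0.127% and 0.120% of counts. Dmp1, a mineral-binding matrix protein of osteocytes, had 160.8, 259.3 and 235.4 FPKM. Mepe, a matrix phosphoglycoprotein, had 99.93, 74.72 and 101.6 FPKM and was only 1.22-fold apart. Sost, which encodes the Wnt antagonist sclerostin, had 30.4, 7.423 and 25.19 FPKM and was lowest in Blank2, the library with the highest collagen. Phex, an endopeptidase of phosphate handling, had 8.14, 20.48 and 16.2 FPKM.

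Osteoclast markers supplied 0.492%, 0.817% and 0.654% of counts. Ctsk, the collagen-degrading cathepsin K, had 623.4, 1978.5 and 1215.2 FPKM. Acp5, the tartrate-resistant acid phosphatase, had 379.5, 988.0 and 731.6 FPKM, and Atp6v0d2, a subunit of the proton pump, 14.26, 47.07 and 31.18. Of 15 measured members, 10 were at least 2-fold apart, 11 were highest in Blank2 and 12 lowest in Blank1, against 14.3%, 40.9% and 34.7% of all expressed genes. Car2, a carbonic anhydrase also made by red-cell precursors, had the opposite order, with 1054.0, 673.4 and 862.1 FPKM. Itgb3, an integrin shared with platelets, did so too, with 142.6, 46.4 and 110.9 FPKM.

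Cartilage genes differed more than those of any other list with at least 5 expressed members, with a median of 4.85-fold apart over 13 expressed members. The list supplied 0.195% of counts in Blank1, 0.834% in Blank2 and 0.520% in Blank3. Col2a1, the main collagen of cartilage, had 164.0, 651.6 and 466.4 FPKM. Col10a1, the collagen of hypertrophic chondrocytes in growth plates, had 28.69, 147.4 and 67.24 FPKM. Matn3, a matrilin of cartilage matrix, had 2.402, 20.42 and 8.767 FPKM, at 9.32-fold apart. All 13 were lowest in Blank1, 11 were highest in Blank2, and 12 were at least 2-fold apart, against 34.7%, 40.9% and 14.3% of all expressed genes. The labels do not say how much cartilage each piece of bone held.

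Periosteum, tendon and fibroblast genes differed less than the cartilage genes. Their median of 1.68-fold apart was still above the 1.37-fold of all expressed genes. They supplied 0.294%, 0.363% and 0.370% of counts, and 1 of 17 expressed members was at least 2-fold apart, against 14.3% of all expressed genes. Dcn, which encodes the small proteoglycan decorin, had 211.6, 317.5 and 305.3 FPKM. Postn, a matrix protein of periosteum, had 83.38, 82.14 and 80.54 FPKM, and Col3a1, a collagen of loose connective tissue, 186.9, 212.0 and 214.6. Stroma and niche genes supplied 0.167%, 0.122% and 0.210%, and 10 of 11 were lowest in Blank2, against 41.4% of all expressed genes. Cxcl12, the chemokine that retains blood stem cells in marrow, had 127.2, 96.03 and 179.7 FPKM. Vcam1, an adhesion molecule of marrow stroma and macrophages, had 42.52, 14.22 and 46.47 FPKM. Marrow fat genes supplied 0.0754%, 0.0659% and 0.0935%, led by the lipid carrier Fabp4 with 279.4, 232.5 and 373.4 FPKM.

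Blood-forming marrow was present in all 3 libraries. Neutrophil granule genes supplied 1.67%, 1.91% and 1.53% of counts, a mean of 1.70% ± 0.189, and 3 of 21 expressed members were at least 2-fold apart, the same share as the 14.3% of all expressed genes. Camp, the precursor of the antimicrobial cathelicidin, had 983.2, 1634.9 and 948.6 FPKM. Mpo, the myeloperoxidase of primary granules, had 318.5, 197.1 and 272.9 FPKM. Lcn2, the iron-binding lipocalin of secondary granules, had 398.3, 140.9 and 350.6 FPKM. The granule genes thus had no common order among the libraries. Monocyte and macrophage genes supplied 0.814%, 0.648% and 0.795%, most of it Lyz2. The complement gene C1qa, made by resident macrophages, had 79.42, 86.98 and 101.9 FPKM, and Csf1r, the receptor that maintains macrophages, 37.11, 48.82 and 54.3.

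B cell and precursor genes supplied 0.204%, 0.153% and 0.149% of counts, 16 of 20 were highest in Blank1, and 0 of 20 were 2-fold apart, against 38.1% and 14.3% of all expressed genes. Cd79a, part of the antigen receptor of B cells, had 162.4, 97.4 and 118.6 FPKM. Igll1, part of the precursor receptor, had 66.7, 66.45 and 53.41 FPKM, and Dntt, the template-free polymerase of lymphoid precursors, 29.04, 13.25 and 20.22. Plasma cell genes supplied 0.0726%, 0.0530% and 0.0851%. Jchain, the joining chain of secreted antibodies, led that list with 583.5, 223.3 and 737.1 FPKM. T and NK cell genes were sparse, at 0.0186%, 0.0194% and 0.0197%, with 8 of 19 measured members expressed. Of these 8, 5 were highest in Blank2, against 40.9% of all expressed genes. Cd3g, part of the T cell receptor complex, had 8.37, 13.4 and 23.22 FPKM and was highest in Blank3. Cd3d and Cd3e, of the same complex, were lower, with 0.602, 1.982 and 1.065 FPKM and with 0.733, 0.829 and 1.363. Stem and progenitor genes supplied 0.0507%, 0.0353% and 0.0454%. Mast cell, basophil and eosinophil genes supplied 0.0470%, 0.0244% and 0.0472%. Prg2, the major basic protein of eosinophils, had 208.4, 82.79 and 197.8 FPKM. Epx, the eosinophil peroxidase, had 12.11, 3.276 and 11.54 FPKM, and 9 of 11 expressed members of that list were lowest in Blank2, against 41.4% of all expressed genes.

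Red-cell and platelet lineages had their highest levels in Blank1. Haemoglobin genes supplied 14.6% of counts in Blank1, 10.1% in Blank2 and 10.4% in Blank3. The other erythroid genes supplied 1.31%, 0.658% and 0.954%, all 27 were highest in Blank1 and 23 were lowest in Blank2, against 38.1% and 41.4% of all expressed genes. Alas2, the first enzyme of erythroid haem synthesis, had 515.6, 248.2 and 349.7 FPKM. Slc4a1, the anion exchanger of the red-cell membrane, had 531.3, 210.6 and 359.4 FPKM. Ahsp, a chaperone of free alpha-globin, was closer in level, with 1258.8, 1019.9 and 948.3. Megakaryocyte and platelet genes supplied 0.239%, 0.104% and 0.183%, with 14 of 15 highest in Blank1 and 9 at least 2-fold apart, against 14.3% of all expressed genes for the latter. Pf4, a chemokine of platelet granules, had 1052.7, 554.8 and 791.5 FPKM, and the fibrinogen receptor chain Itga2b 104.8, 33.92 and 75.75. Cell division genes followed the same order: they supplied 0.451%, 0.262% and 0.370%, and 21 of 23 were highest in Blank1. Mki67, a marker of cycling cells, had 125.8, 58.66 and 91.78 FPKM.

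Bone lists and red-cell lists had opposite orders among the 3 libraries. Blank1 had the lowest bone, cartilage and osteoclast shares and the highest erythroid, platelet and cell division shares, Blank2 the reverse, and Blank3 lay between them. The median deviation from the mean of the 3 libraries was -0.67 (log2 CPM) in Blank1 and 0.59 in Blank2 for osteoblast genes, and 0.45 and -0.42 for erythroid genes other than haemoglobin. Over all expressed genes the median in Blank1 was 0.01. Replicates have no order of their own, and whether the pieces of bone differed in their content of marrow was not tested.

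**Figure D3:**
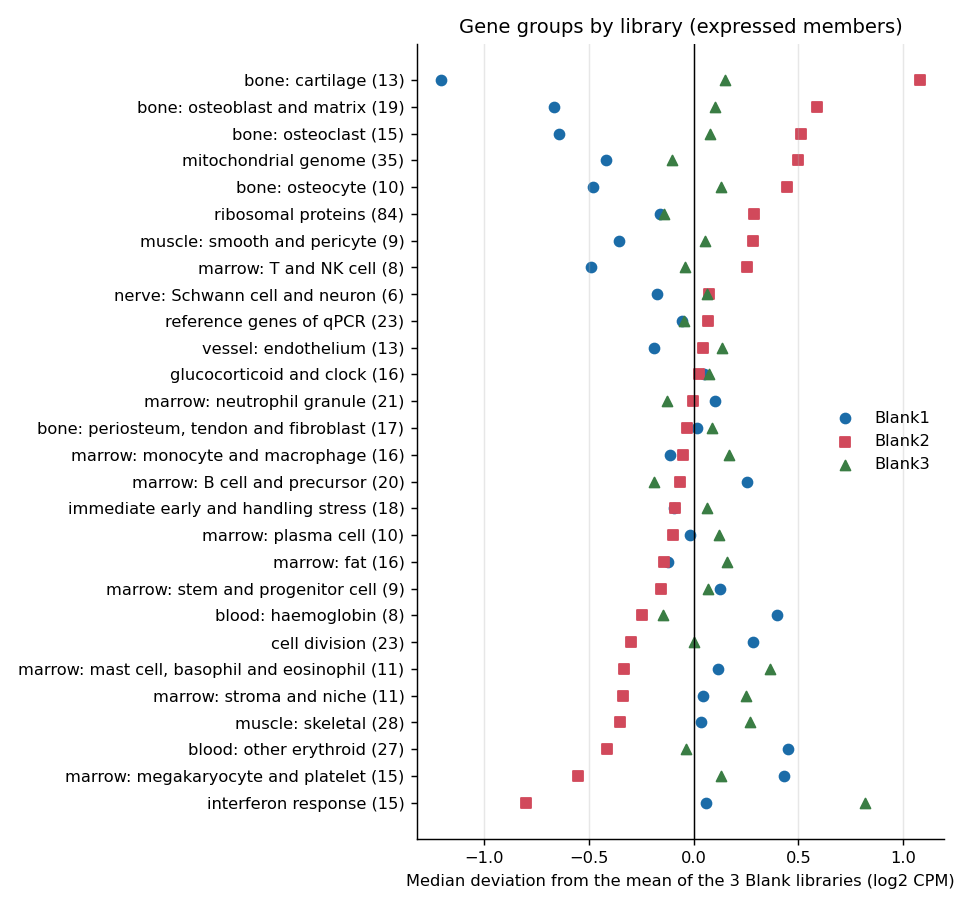
Median deviation of each gene list from the mean of the 3 Blank libraries (log2 CPM), 1 point per library, with the number of expressed members in brackets. Cartilage, osteoblast and osteoclast genes are highest in Blank2 and lowest in Blank1, and erythroid and platelet genes are highest in Blank1 and lowest in Blank2.

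Skeletal muscle genes were present in all 3 libraries. They supplied 0.933%, 0.734% and 1.19% of counts, and 1 of 28 expressed members was 2-fold apart, although 26 of 28 were highest in Blank3 and 23 lowest in Blank2. Over all expressed genes these shares were 14.3%, 21.1% and 41.4%. Acta1, the skeletal actin, had 1091.7, 652.8 and 1319.2 FPKM. Ckm, the muscle creatine kinase, had 530.1, 337.3 and 651.8 FPKM, and Mb, which encodes myoglobin, 473.9, 432.9 and 595.2. Mylpf, a light chain of fast myosin, had 566.9, 837.8 and 764.2 FPKM and was highest in Blank2. The list ran from 0.0378% to 0.700% in the 12 ovariectomized libraries, so the lowest Blank library lay above all of them.

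The share of Acta1 was 0.178%, 0.108% and 0.219% in the Blank libraries and between 0.000544% and 0.119% in the other 12, of which 11 lay below the Blank range and 1 inside it. The mean of 0.168% ± 0.0558 exceeded that of the 12 by 0.118 percentage points (exact two-sided permutation test, p = 0.0044, adjusted p = 0.0264). The smallest p that this design can give is 0.0022. On log2 values the same comparison did not pass (exact permutation test, p = 0.0747, adjusted p = 0.15), so the call depended on the scale. The call was also lost with any 1 Blank library left out, with adjusted p from 0.0659 to 0.132 (exact permutation tests). The smallest possible p was then too large for Acta1 on its own to pass after adjustment, so this loss decides nothing. Against the 3 Model libraries alone the difference was 0.151 with p = 0.1 (exact permutation test), the smallest value that 3 against 3 can give. The 12 libraries come from 4 groups and are not 1 population. Acta1, like the other members, was chosen with earlier results of these data known, and the adjusted p does not cover that choice. Haemoglobin did not separate Blank from the rest: the mean of 11.7% ± 2.54 stood beside 10.8% ± 5.12 (exact permutation test, adjusted p = 0.956). The share of Col1a1 did not either, with 1.01%, 3.15% and 2.36% in Blank and 0.227% to 7.10% in the others (exact permutation test, adjusted p = 0.956). Non-overlap of the muscle list was shared by the list of glucocorticoid and clock genes, at 0.0994%, 0.0816% and 0.0932% in Blank against 0.0359% to 0.0751%. Tsc22d3, a target of the glucocorticoid receptor, led that list with 93.65, 79.83 and 83.1 FPKM. Of the 28 lists, only the muscle list and this one had a Blank range outside that of the other 12 libraries. The share of all expressed genes with such non-overlap is not given here. These 2 lists were not tested against the other groups.

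Vessel, smooth muscle and nerve genes were minor. Endothelial genes supplied 0.0444%, 0.0475% and 0.0568% of counts, smooth muscle and pericyte genes 0.0483%, 0.0578% and 0.0647%, and Schwann cell and neuron genes 0.0144%, 0.0127% and 0.0146%. Egfl7, a factor secreted by endothelium, had 17.57, 23.89 and 20.74 FPKM, and the myelin gene Mbp 14.69, 5.616 and 9.193. Markers of skin and liver were near 0, at no more than 0.00186% and 0.000559% of counts. Krt14, a keratin of basal skin cells, and Apoa2, an apolipoprotein of liver, had 0 counts in all 3 libraries. Alb, which encodes albumin, stayed below 0.06 FPKM. The keratinocyte list had 1 expressed member of 7, Dsg3, a desmosomal cadherin, with 0.0149 FPKM in Blank1, 1.66 in Blank2 and 2.19 in Blank3. Immediate early genes, which respond within minutes to handling, supplied 0.106%, 0.0842% and 0.102%, with Fos at 13.5, 12.44 and 19.93 FPKM.

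The spread of each expressed gene was then measured over the 3 libraries. From 3 values it is imprecise, and no gene was tested. The median SD was 0.24 (log2 CPM), a median coefficient of variation of 16.6% on the linear scale, where counting alone would give 2.53%. At least 2-fold apart were 1905 of 13298 genes (14.3%), and at least 4-fold apart were 356 (2.68%). At most 1.1-fold apart were 1125 (8.46%). Each gene at least 2-fold apart was assigned to 1 odd library, the one beyond the wider gap between its ordered values. The other 2 libraries could differ from each other too. Blank2 was the odd library for most of these genes, 602 (4.53% of expressed genes) as the low one and 482 (3.62%) as the high one. For Blank1 470 (3.53%) were low and 133 (1.0%) high, and for Blank3 106 (0.797%) were low and 112 (0.842%) high. Without Blank2, 491 of the genes expressed over the 3 libraries were 2-fold apart between Blank1 and Blank3, or 473 where the mean of at least 1 FPKM was taken over these 2 libraries alone.

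The Blank group was the most uniform of the 5 groups by this measure. The share of expressed genes at least 2-fold apart was 14.3% in Blank, 19.2% in YJZYT, 21.5% in YJT, 22.5% in Model and 32.6% in SYT. The common biological coefficient of variation of edgeR was 28.3% in Blank, against 34.4% to 40.4% in the other groups, and 22.0% for Blank1 and Blank3 alone. Each group has 3 libraries, and the differences between groups in spread were not tested.

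Spread varied with the length of the message. For the 835 expressed genes whose length, as implied by their deposited count and FPKM, was under 0.5 kb, 51.4% were at least 2-fold apart, and the median deviation was 0.22 (log2 CPM) in Blank2, -0.13 in Blank1 and -0.07 in Blank3. At the same FPKM a shorter gene has fewer counts, so counting error adds more to its spread, and that part was not separated. Of the small or ribosomal RNA genes, 209 were expressed by FPKM, but 139 had a count of at least 10 in all 3 libraries. For the 5074 genes of 2 to 4 kb, 9.83% were 2-fold apart and the medians were -0.01 in Blank2, 0.03 in Blank1 and 0.00 in Blank3. For the 456 genes over 8 kb the medians were -0.19 in Blank2, 0.15 in Blank1 and 0.07 in Blank3. Short messages were thus higher and long ones lower in Blank2. Ribosomal protein genes, whose messages are short, moved with it: they supplied 4.46%, 5.76% and 4.63% of counts, and 79 of 84 expressed were highest in Blank2, against 40.9% of all expressed genes, 52.8% of those under 0.5 kb and 57.9% of those from 0.5 to 1 kb. The part of message length in the results that rest on Blank2 was not tested.

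The 20 named genes that differed most among the Blank libraries were chosen for their spread, and their values are given as a description. They included 3 class I histocompatibility genes. LOC103690108, described as a class I histocompatibility chain, is at chr20:3791407-3794027 on the minus strand in the deposited coordinates, whose build is not given. It had 159.7 FPKM in Blank1, 0.203 in Blank2 and 179.4 in Blank3. RT1-CE10, a class I gene on the same chromosome, had 47.69, 2.459 and 48.61 FPKM. LOC100364500, described as RT1 class I CE11-like, had 26.91, 2.033 and 35.65. All 3 were low in Blank2 alone. Over the 15 libraries, LOC103690108 was at 55.04 FPKM in SYT2, 66.77 in YJT2 and at most 0.417 in the 11 libraries other than these and Blank1 and Blank3. RT1-CE10 was at 27.15 in YJT2 and at most 5.41 in the 12 libraries other than YJT2, Blank1 and Blank3. The class I genes of the rat are a cluster of close copies that differs in content between haplotypes, and reads may have been divided between entries.

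Prss29 and Prss34, neighbouring serine protease genes on chromosome 10, differed in the same way. Prss29 had 97.54, 1.791 and 134.3 FPKM, and Prss34 had 52.31, 1.669 and 75.02. Both were low in Blank2, and over all 15 libraries 5 lay above the widest gap for each gene: Blank1, Blank3, Model2, SYT2 and YJT2. The others reached at most 5.74 FPKM for Prss29 and 8.73 for Prss34. Serpinb11, a serine protease inhibitor of the clade B family, had 0 counts in Blank1, 562 in Blank2 and 0 in Blank3. Fcrl2, an Fc receptor-like protein of B cells, had 0.515, 27.84 and 3.48 FPKM, and Ccl9, a chemokine of myeloid cells, 0.962, 13.35 and 3.366.

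**Figure D4:**
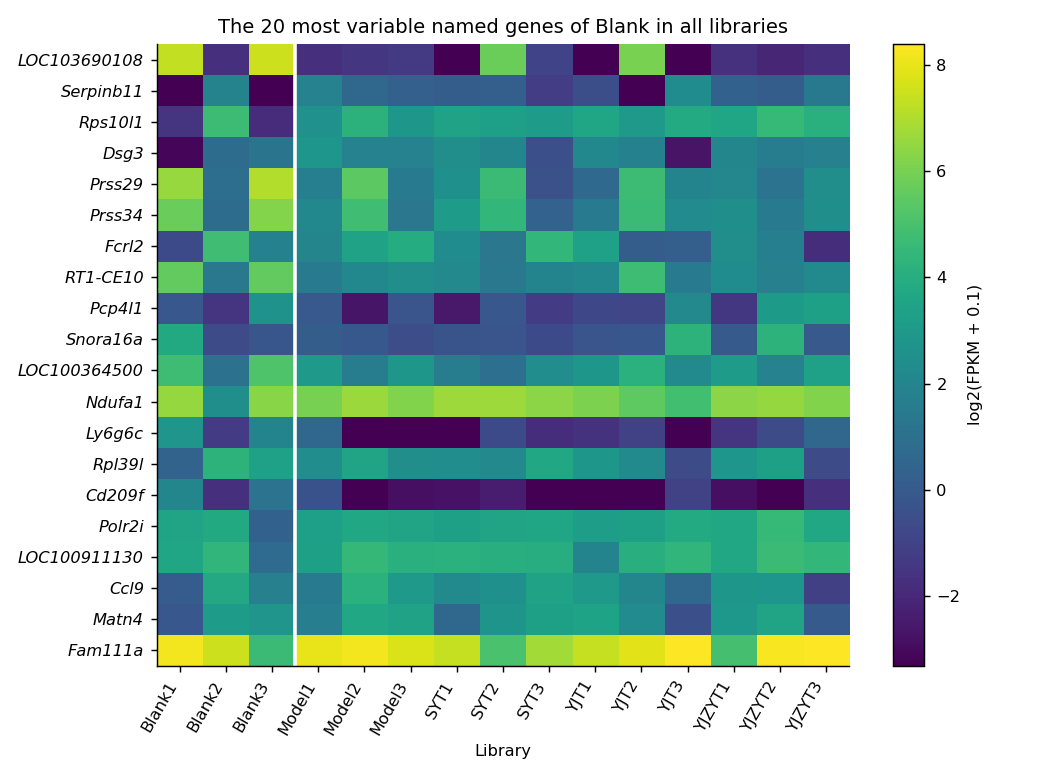
Levels, as log2(FPKM + 0.1), of the 20 named genes with the largest spread among the Blank libraries (rows) in all 15 libraries (columns), with Blank to the left of the white line. LOC103690108, Prss29 and Prss34 are high in Blank1 and Blank3 and low in Blank2, and Ndufa1 is low in Blank2 alone of the 15.

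Ndufa1, Polr2i, Rps10l1 and Fam111a, of the same set, were low in 1 to 3 libraries of the whole series. Ndufa1, a subunit of respiratory complex I encoded on the X chromosome, had 93.13, 5.678 and 80.04 FPKM, and every library but Blank2 had at least 28.35. Polr2i, a subunit of RNA polymerase II, had 11.34, 13.88 and 1.154, and every library but Blank3 had at least 9.43. Rps10l1, a ribosomal protein S10-like entry, had 0.255, 25.81 and 0.184, and was at 6.02 or more in the 13 libraries other than Blank1 and Blank3. Fam111a, a protease of viral restriction and DNA replication, had 297.1, 180.7 and 24.98 FPKM. It was at most 32.3 in Blank3, SYT2 and YJZYT1 and at least 107.7 in the other 12. LOC100911130, described as a mitochondrial import subunit, had 12.09, 20.95 and 1.628 FPKM. Ly6g6c, of the lymphocyte antigen 6 family, had 6.748, 0.323 and 3.849, and Cd209f, a C-type lectin, 4.014, 0.211 and 2.129. Both were lowest in Blank2 among the Blank libraries. Over the whole series, Cd209f was at most 0.671 FPKM in the 13 libraries other than Blank1 and Blank3. Ly6g6c was at 0 FPKM in Model2, Model3, SYT1 and YJT3. Matn4, a matrilin of extracellular matrix, had 0.794, 8.853 and 6.893, and Rpl39l, a ribosomal protein L39-like entry, 1.231, 18.98 and 10.46. Both were lowest in Blank1. Pcp4l1 had 0.813, 0.253 and 6.25 FPKM, and the small nucleolar RNA Snora16a 13.72, 0.557 and 0.789. Of the 20 genes, 10 were lowest in Blank2, 6 in Blank1 and 4 in Blank3. Serpinb11, with 0 counts in both Blank1 and Blank3, was counted under Blank1. Just outside the 20 was RT1-M2, a further class I gene, with 2.011, 0.181 and 2.137 FPKM.

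Interferon-response genes differed as a list. Of 15 expressed members, 12 were at least 2-fold apart against 14.3% of expressed genes, 14 were highest in Blank3 and 14 lowest in Blank2, against 21.1% and 41.4%. Their share of counts was 0.116%, 0.0562% and 0.132%. Irf7, a transcription factor that amplifies the response, had 34.92, 6.505 and 55.39 FPKM. Mx1, an antiviral GTPase, had 4.361, 0.724 and 9.308, and Ifit1, which binds viral RNA, 37.36, 5.232 and 39.79. Rsad2, the antiviral enzyme viperin, had 154.5, 63.57 and 135.8.

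The steadiest genes were chosen for their small spread and had varied roles. Among genes with a mean of at least 10 FPKM, the 10 of lowest SD were at most 1.01-fold apart. Arhgdia led them in level, with 196.8, 179.1 and 198.8 FPKM. The FPKM of Blank2 is lower than its scaled CPM because FPKM carries no TMM factor. Trappc5, of vesicle trafficking, had 18.61, 16.81 and 18.83 FPKM, and Nelfe, of the negative elongation factor, 18.65, 16.98 and 19.0. Others were Sgta, a co-chaperone, the DNA glycosylase Ung, the ubiquitin ligase Trim8, Ptafr, the receptor of platelet-activating factor, the AAA ATPase Atad1 and the aminopeptidase Metap1. Next outside the 10 was Unc45a at 12.22 ± 0.739 FPKM.

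Steadiness was then read in the 12 libraries that had not been used to choose the genes, as the SD of log2 CPM within the other 4 groups. The median was 0.35 over all expressed genes, 0.21 over the 1125 steady genes and 0.76 over the 1905 genes at least 2-fold apart. Of the steady genes, 58.1% were in the lowest 25% of all expressed genes by that SD and 5.24% in the highest 25%. Of the genes 2-fold apart, 71.4% were in the highest 25% and 0.787% in the lowest. Of the 10 steadiest genes, 7 were in the lowest 25%. Ptafr was not among them, with an SD that exceeded that of 73.2% of expressed genes. Of the 1125 steady genes, 654 were thus steady by this measure too, and of the 1905 genes 2-fold apart, 1361 were variable. The sets also differed in level, with a median count in Blank of 2510.3 for steady genes, 1564.5 for all expressed genes and 557 for those 2-fold apart. Genes of low count have more counting error in any library, and the part of level in these shares was not tested.

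**Figure D5:**
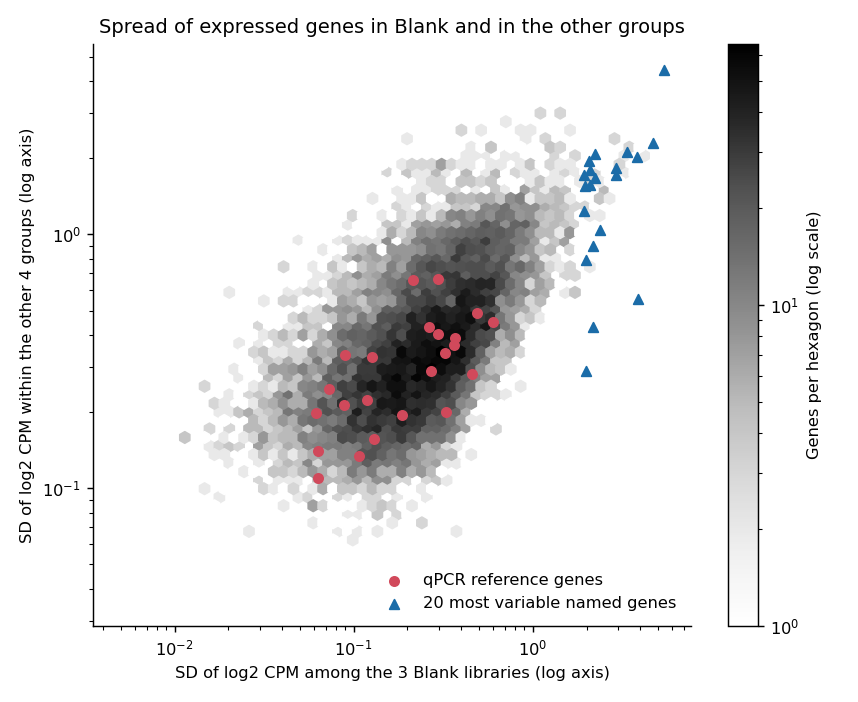
SD of log2 CPM among the 3 Blank libraries against the SD within the other 4 groups (both log axes) for 13298 expressed genes, shaded by the number of genes per hexagon, with qPCR reference genes as circles and the 20 most variable named genes as triangles. Both spreads rise together, and the triangles lie at the right edge by their choice.

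Genes in common use as references for qPCR were compared on the same scale. Of 23 measured entries, 10 were at most 1.2-fold apart among the Blank libraries and 7 were over 1.5-fold apart, against 25.2% and 37.4% of all expressed genes. Their median of 1.34-fold apart lay close to the 1.37-fold of all expressed genes. Of the 7, 5 encode ribosomal proteins. B2m, the light chain of class I histocompatibility antigens, had 627.8, 584.8 and 693.0 FPKM and was 1.09-fold apart. Atp5f1b, a subunit of ATP synthase, had 612.0, 514.5 and 617.9 FPKM at 1.08-fold, and Cyc1, of the respiratory chain, was at 1.09-fold. Pgk1, a glycolytic kinase, had 179.8, 174.2 and 176.1 FPKM at 1.11-fold. Actb, the cytoplasmic beta-actin, had 1399.3, 884.4 and 1297.0 FPKM at 1.44-fold. Rplp2, of the ribosomal stalk, had 358.0, 690.5 and 388.9 FPKM at 2.13-fold and was the only entry of the list at 2-fold or more.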

How the data were processed

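Bone RNA was poly(A)-selected, dUTP-marked, fitted with adapters that carry unique molecular identifiers and sequenced as paired ends, per the labels' protocols. For each gene and library the authors deposited 1 count, used as given, and 1 FPKM value, as the file headers name them. Tools in the submitters' processing notes, without their roles, are StringTie 1.3.4d, edgeR, HISAT2 2.0.4, DESeq2, cutadapt 1.9 and UMI-tools. Not given in the sources used here are the build, the annotation, how reads were counted and whether duplicates of 1 molecule were merged. Overlapping genes and close copies may therefore share reads, and a list symbol that matched no entry was not analysed here.

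Samples were grouped by condition label. Counts were scaled with TMM factors (edgeR 4.0.16, R 4.3.3) and turned into log2 CPM with a prior count of 2. The spread of each gene was summarised without a test. Single values per library were compared between 3 Blank and 12 other libraries with exact two-sided permutation tests, with Benjamini-Hochberg adjustment over 6 values and a threshold of 0.05. The script was tested on simulated data.

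Genes were named from these sets: the 25 nuclear genes of highest mean FPKM that carry a symbol, the mitochondrial genome as a class, the 10 steadiest genes (mean FPKM of at least 10, at least 100 counts in each Blank library), the 20 with the largest spread (at least 100 counts in the highest library), up to 6 members of each of 28 lists, and every qPCR reference gene. The text gives examples of the list members and reference genes, and 1 of the 10 steadiest genes is not reported here. Entries named by a clone accession were taken as having no symbol. Further list members were chosen as examples after their values were seen. Members and lists were chosen with earlier results of these data known. Alternatives were other scaling factors, filters, prior counts, denominators and values per length, the replicate block, and each library left out in turn. Chosen after seeing the data were the bone list with both collagen type I alpha 2 entries, leaving out each of the 12 other libraries, the spread in the other groups, and the replicate block against Model alone.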

Additional observations from a re-analysis of the deposited data

How the results depend on the processing

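Over the 4 other groups the replicate numbers did not pair the libraries: of 12 correlations of same-numbered deviations with Blank, 6 were over 0.1, and they ran from -0.52 to 0.39. Those with Model alone were over 0.1 for all 3 numbers (0.13 to 0.39). Permuting within the replicate number, as a replicate block, changed no call: the difference for Acta1 stayed at 0.118 percentage points with adjusted p = 0.048 (exact permutation, smallest possible p 0.008). Against Model alone with the block, where the smallest possible p is 0.25, the Acta1 difference was 0.151 with p = 0.25 (exact permutation), adjusted p = 0.5, and none of the 6 values passed.

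Of the alternatives for values over the Blank libraries and their comparisons, 150 were labelled the same, 24 moved, 5 reversed and 6 weaker. For a tested comparison, the same means that direction and side of the threshold were kept. A value without a test has no threshold, and its label rests on its size alone. The number of detected genes was 18550.0 at a count of at least 1, 16815.0 at FPKM of at least 0.1 and 13204.7 at FPKM of at least 1. With mitochondrial and haemoglobin genes left out of the libraries, and so of the top 100 too, the share of the top 100 was 22.0%. On that smaller denominator neutrophil genes took 2.12% and skeletal muscle 1.18%. As shares of summed FPKM, the top 100 took 54.5%, bone matrix 1.82%, neutrophil genes 3.34%, haemoglobin 24.3% and the mitochondrial genome 12.7%. The number of genes 2-fold apart was 912 at a mean FPKM of at least 5 and 6209 without a filter, 2960 in Model and 4231 in SYT, and 473 to 1531 with 1 Blank library left out. Steady genes numbered 3620 without a filter and 2653 to 4814 with 1 library left out, where fewer libraries raise the count by construction. The common biological coefficient of variation was 35.7% with no filter on low counts and 22.0% to 34.1% with 1 library left out. The haemoglobin difference reversed to -0.605 without Blank1 (range -0.605 to 1.69). The Col1a1 difference of -0.0873 reversed to 0.35 on log2 values, 0.495 without Blank1, 0.139 without Model3 and 0.353 without SYT3 (range -0.577 to 0.495). Neither passed a threshold. The Acta1 call was lost against Model alone (0.151, adjusted p = 0.6), on log2 values (2.79, adjusted p = 0.15, exact permutation tests) and without Blank1, Blank2 or Blank3 (0.113, 0.148 and 0.0928). Against Model alone, and with a Blank library left out, the smallest possible p was too large for Acta1 on its own to pass after adjustment. Over all libraries left out the Acta1 difference ran from 0.0928 to 0.148. The causes were not tested.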

Other observations

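Entries on chromosome 6 that carry only a clone accession as their name, within 5 Mb of the start of the immunoglobulin heavy chain gene Ighm, differed among the Blank libraries. This set was chosen after its values were seen, and the deposited table does not name its members as immunoglobulin genes. Of 72 expressed entries, 64 are marked as protein coding, 61 were at least 2-fold apart and 58 were lowest in Blank2, against 14.3% and 41.4% of all expressed genes for the last counts. Together they took 0.0282% of counts in Blank1, 0.00841% in Blank2 and 0.0369% in Blank3. The 12 ovariectomized libraries ran from 0.00779% to 0.0306%, with a median of 0.0132%. Blank2 thus lay near their lower end and Blank3 above their range. Jchain had the same order among the Blank libraries, with 583.5, 223.3 and 737.1 FPKM.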
